A study of Mus musculus with 21 samples.

Results

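Cells of the stromal vascular fraction of mouse subcutaneous fat were compared after passage, at day 28 of passage 1 (P1), with the same kind of cells at day 14 of primary culture (P0), in 3 libraries of each. These 6 of the 21 libraries of the series are the ones labelled with that passage and day, and the comparison addresses whether passage returns the cells to a state passed in the middle of primary culture. The P0 day 28 libraries (n = 3) are set beside them, because the P1 cells descend from cultures passaged at that day. All groups come from the inguinal subcutaneous fat of unmodified female C57BL/6J mice of 8 to 12 weeks, with the lymph nodes removed and the red cells lysed. The live cells were seeded at 5000 per cm2 in IMDM with 10% serum and 2-mercaptoethanol, without added differentiation factors. P1 cells had thus been in culture for 28 days of P0 and a further 28 days. Passage and a longer total time in culture cannot be told apart here. Nothing in the labels says whether the replicates came from separate animals, so a p-value covers the spread among libraries and no more, which may be technical. That spread was estimated over all 21 libraries in 7 groups, except where a fit of fewer libraries is named.

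The stromal vascular fraction is what remains of fat tissue once the fat cells are taken away. It holds fibroblast-like stromal cells and adipocyte progenitors, endothelial cells, macrophages and lymphocytes. On plastic the adherent stromal cells divide, spread, build actin stress fibres and lay down collagen matrix, and detaching and replating them restarts this sequence at low density. Matrix metalloproteinases cut that matrix, caveolae are membrane pits shaped by caveolin and cavin proteins, and macrophages that stay in culture can take on genes of osteoclasts, the bone-resorbing cells of the same lineage.

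Levels are given as scaled reads, that is, the reads of a gene multiplied by a factor of the library. They were worked back from the deposited log2 values, in which a gene with 0 reads was set to 16 and any level under 30 was set to 30. A value of 16 or 30 therefore stands for "at or under the floor". A difference between a group on a floor and a group above it is understated. Where both groups hold floor values, the step from 16 to 30 can instead enlarge it. With both floors set to 30, the log2 difference of Grhl2 between P1 and P0 day 14 was -0.44 and not -1.35. Each "at least" fold below is counted from 30. The P1 libraries held 2757819 to 3721670 reads above the floor, against 3239995 to 3865394 in the P0 day 14 libraries. A level of 30 was worth 32.0 to 40.5 reads in P1 libraries and 33.4 to 37.7 reads in P0 day 14 libraries. Of 30961 gene models, 7767 were above the floor in at least 3 of the 21 libraries and were tested. Gene symbols are used only for 548 genes in 4 stretches of the genome, on chromosomes 4, 6, 9 and 15, and on the mitochondrial genome, of which 430 were tested. Elsewhere the symbols in the table could not be matched to their values, and those gene models enter only counts. In the 4 stretches the stromal collagen gene Col1a2 was at 120137, 116869 and 86777 scaled reads in the P1 libraries. Lymphocyte and epithelial marker genes were near or on the floor.

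Over all 7767 gene models P1 lay nearest to P0 day 14. The root mean square log2 difference between the group means was 1.615 to P0 day 0, 1.071 to day 3, 0.915 to day 7, 0.564 to day 14, 0.649 to day 21 and 0.680 to day 28. Single libraries overlapped more. A P1 library and a P0 day 14 library were 0.715 to 0.771 apart, while P0 day 21 replicate 1 was 0.737 to 0.765 from the P1 libraries and the other P0 day 21 libraries were 0.840 to 0.890 from them. The P0 day 28 libraries were 0.794 to 0.982 from the P1 libraries. Gene models above the floor numbered 4458 to 4703 in P1 libraries, 4593 to 4765 at P0 day 14 and 4957 to 5724 at P0 day 28. At P0 day 21 they numbered 4696 in replicate 1, and 5390 and 5635 in replicates 2 and 3. Whether the distances follow these numbers more than the state of the cells was not tested. Pairs of P1 libraries were 0.599 to 0.612 apart, so that P1 was farther from P0 day 14 than P1 libraries were from each other. Pairs within P0 day 14 were 0.551 to 0.613 apart, within P0 day 21 0.636 to 0.687 and within P0 day 28 0.656 to 0.76. A wider spread within a group also adds to the distance of its mean. Quantile normalization narrowed the gaps, to 0.591 for day 14, 0.612 for day 21 and 0.644 for day 28. After it the median absolute difference was 0.25 for day 14, 0.235 for day 21 and 0.253 for day 28, which puts day 21 nearest.

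**Figure D1:**
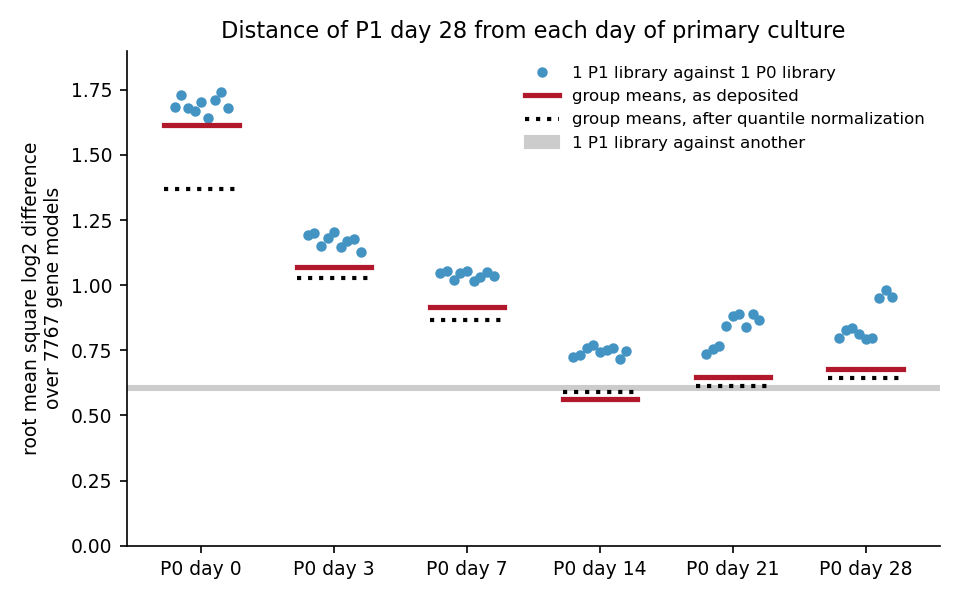
Root mean square log2 difference (y axis) between P1 day 28 and each day of primary culture (x axis), over 7767 gene models. Points are pairs of 1 P1 and 1 P0 library, red lines the group means as deposited, dotted lines the group means after quantile normalization, and the grey band pairs of P1 libraries. The lowest red line is at day 14 (0.564), and the points of day 14 overlap those of 1 library of day 21.

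Between P1 and P0 day 14, limma called 708 of 7767 gene models at an adjusted p under 0.05 (9.12%), 261 higher (3.36%) and 447 lower in P1 (5.76%). Between P1 and P0 day 28 it called 1144 (14.7%), 144 higher (1.85%) and 1000 lower (12.9%), and between P0 day 28 and P0 day 14 it called 505 (6.50%), 442 higher (5.69%) and 63 lower (0.811%) at day 28. Against P0 day 0 it called 65.4% of gene models, against day 3 39.7%, against day 7 33.5% and against day 21 13.8%. The balance of directions moved with the scaling. The 3172 gene models that no library had on a floor had a median log2 difference of -0.08 between P1 and P0 day 14 and of -0.27 between P1 and P0 day 28. After quantile normalization the P1 against P0 day 14 calls were 413 higher and 493 lower, and after scaling to the median gene model 375 higher and 400 lower. For P1 against P0 day 28 the same scalings gave 424 higher and 480 lower, and 409 higher and 375 lower. A fit of the 6 P1 and P0 day 14 libraries alone called 150 higher and 323 lower.

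Of the 430 tested genes that can be named, 99 were called between P1 and P0 day 14, 24 higher and 75 lower in P1. These genes were more abundant than the other gene models tested, with a median level of 753 against 69 scaled reads. Where the level was above the floor in every library, 81 of the 324 genes that can be named were called, against 421 of all 3172 gene models (13.3%). The median log2 difference was -0.18 over the 430 genes and 0.00 over all gene models tested. Of the 99 genes, 62 were also called lower and 12 also called higher against P0 day 28, and 1, Mmp3, was called higher than P0 day 14 and lower than P0 day 28. The other calls against P0 day 14, 11 higher and 13 lower, had no call against P0 day 28. These 2 comparisons share the P1 libraries.

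The genes of the contractile and adhesive machinery gave the most calls of any list, 3 higher and 8 lower of 15 tested, with a median log2 difference of -0.58. Of all gene models 9.12% were called, and of the genes that can be named 99 of 430. These shares are the background for the count of every list below. In the fit of the 6 libraries alone 2 members were called higher and 5 lower. Tpm2, which encodes the beta-tropomyosin that winds along actin filaments, was at 3976, 4071 and 3823 scaled reads in the P1 libraries, against 13460, 10517 and 11042 in the P0 day 28 libraries and 13177, 12448 and 10908 in the P0 day 14 libraries. The P1 libraries all lay far below both P0 groups, which overlapped each other. Tpm2 fell 3.07-fold between P1 and P0 day 14, by a log2 difference of -1.62 ± 0.12 (SE; adjusted p = 2.51e-07). Tln1, for talin, the link from integrins to actin, fell by less, with a log2 difference of -0.45 ± 0.06 (SE; adjusted p = 0.000113). The start of Tln1 overlaps that of Creb3 on the other strand, and the library kit does not mark strand, so reads in the overlap cannot be assigned between them. Flnc (filamin C, an actin cross-linker) and Tes (testin, a focal adhesion protein) had log2 differences of -0.58 and -0.80, with adjusted p of 0.000185 and 0.000101.

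Cavin4 and a pair of cadherins were also among those that fell. Cavin4, a coat protein of caveolae best known from muscle, was at 30, 30 and 30 scaled reads in the P1 libraries, against 623, 374 and 242 in the P0 day 28 libraries and 133, 710 and 295 in the P0 day 14 libraries. All P1 libraries were on the low floor, and the level was at least 10.1-fold lower in P1 than at P0 day 14 (fitted log2 difference -3.34, adjusted p = 0.000177). Cavin4 lies directly downstream of Tmeff1 on chromosome 4, on the same strand. Cdh10, a cell adhesion receptor of the type II cadherins, was at 30, 16 and 16 scaled reads in the P1 libraries, against 80, 35 and 86 in the P0 day 28 libraries and 128, 107 and 111 in the P0 day 14 libraries, at least 3.83-fold lower in P1 than at P0 day 14 (adjusted p = 0.000419). Cdh6, another type II cadherin, was at 16, 30 and 16 scaled reads in the P1 libraries, against 94, 132 and 64 in the P0 day 14 libraries, at least 3.08-fold lower (adjusted p = 0.000125). Both cadherins were on a floor in all P1 libraries, and no P0 day 28 or day 14 library was.

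The caveolins went the other way. Cav1, the main coat protein of caveolae outside muscle, was at 12644, 9926 and 15555 scaled reads in the P1 libraries, against 6157, 6462 and 4442 in the P0 day 28 libraries and 7427, 7402 and 6292 in the P0 day 14 libraries, with a log2 difference of 0.83 ± 0.16 (SE; adjusted p = 0.00248) between P1 and P0 day 14. Its partner Cav2 had 3166, 2815 and 3852 scaled reads in the P1 libraries, against 1847, 2029 and 1863 in the P0 day 14 libraries, a log2 difference of 0.77 ± 0.12 (SE; adjusted p = 0.000508). Myo10, a motor that carries cargo to the tips of filopodia, was the third member that rose, by 0.86 ± 0.11 (SE; adjusted p = 7.01e-05) in log2. Cav2, Cav1, Met, Tes and Capza2 sit within 1 stretch of chromosome 6, from 17065149 to 17666972 on GRCm38, all on the + strand. Met, the receptor for hepatocyte growth factor, was at 1142, 1020 and 994 scaled reads in the P1 libraries, against 371, 630 and 310 in the P0 day 28 libraries and 578, 362 and 457 in the P0 day 14 libraries, with a log2 difference of 1.20 ± 0.27 (SE; adjusted p = 0.00767) between P1 and P0 day 14. In this stretch Cav2, Cav1 and Met rose, Tes fell, and Capza2, for an actin capping protein, was not called (log2 difference -0.13, adjusted p = 0.32).

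**Figure D2:**
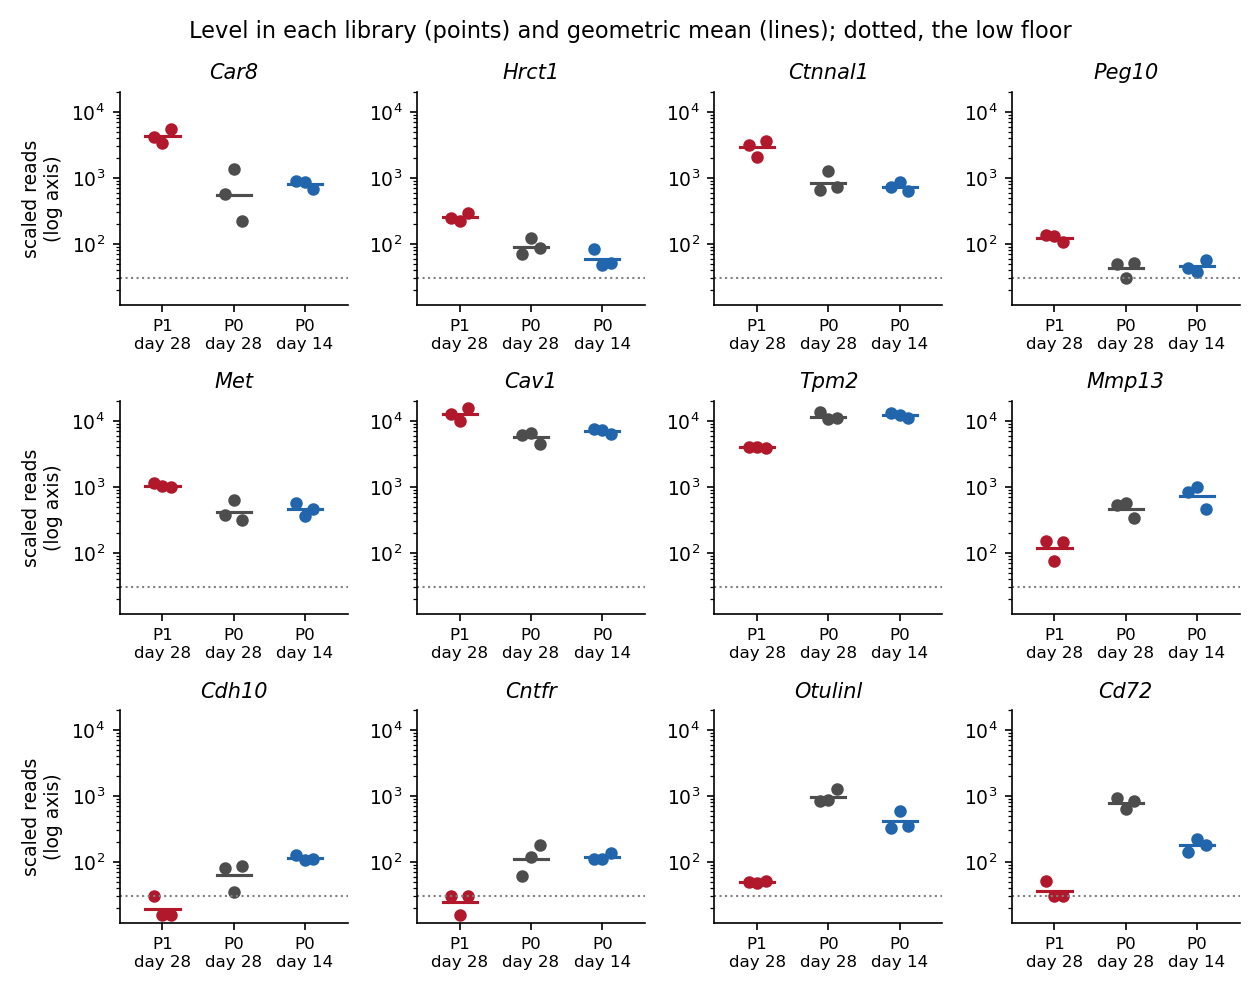
Scaled reads (y axis, log scale) of 12 genes in the 3 libraries of P1 day 28, P0 day 28 and P0 day 14 (x axis). Points are libraries, lines geometric means and the dotted line the low floor of 30. Car8, Hrct1, Ctnnal1, Peg10, Met and Cav1 are higher in P1 than in both P0 groups, and the other 6 are lower than in both.

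The matrix proteases of chromosome 9 showed 3 different patterns among neighbouring genes. Of 6 tested, 1 was called higher and 2 lower in P1 than at P0 day 14, beside 99 of 430 named genes called. The median log2 difference of the 6 was -0.50. The 300 bases around the start of 4 of them, from 250 before to 50 after, are shown from RefSeq (GRCm38.p6, + strand), since these neighbours differed in direction. Capitals mark matches to TGANTCA, a binding motif of the AP-1 transcription factors that reads the same on both strands. The motif was chosen with the values known.
Mmp13 (chr9:7272264-7272563): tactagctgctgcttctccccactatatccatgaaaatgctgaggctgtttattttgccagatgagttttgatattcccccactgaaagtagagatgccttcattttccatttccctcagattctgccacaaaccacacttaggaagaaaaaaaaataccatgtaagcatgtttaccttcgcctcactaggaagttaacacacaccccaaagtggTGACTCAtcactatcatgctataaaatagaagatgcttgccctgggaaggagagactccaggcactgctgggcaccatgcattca
Mmp3 (chr9:7445572-7445871): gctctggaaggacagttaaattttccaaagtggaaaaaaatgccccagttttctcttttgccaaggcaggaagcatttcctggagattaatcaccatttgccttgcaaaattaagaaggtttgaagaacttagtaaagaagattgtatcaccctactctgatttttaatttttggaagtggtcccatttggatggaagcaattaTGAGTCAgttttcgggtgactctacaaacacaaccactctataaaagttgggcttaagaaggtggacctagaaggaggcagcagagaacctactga
Mmp8 (chr9:7558179-7558478): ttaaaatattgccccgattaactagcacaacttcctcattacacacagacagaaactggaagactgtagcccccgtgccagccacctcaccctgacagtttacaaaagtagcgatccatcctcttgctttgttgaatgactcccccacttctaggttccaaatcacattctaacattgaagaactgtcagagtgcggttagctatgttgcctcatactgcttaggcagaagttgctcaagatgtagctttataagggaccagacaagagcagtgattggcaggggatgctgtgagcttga
Mmp27 (chr9:7571146-7571445): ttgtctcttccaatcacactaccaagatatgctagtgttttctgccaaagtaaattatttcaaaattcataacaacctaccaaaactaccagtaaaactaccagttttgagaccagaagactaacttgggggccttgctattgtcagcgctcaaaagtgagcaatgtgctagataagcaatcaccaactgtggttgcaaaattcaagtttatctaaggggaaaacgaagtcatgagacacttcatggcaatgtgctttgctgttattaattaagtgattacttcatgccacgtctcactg
Mmp13 had the match TGACTCA 35 bases before its start and Mmp3 the match TGAGTCA 46 bases before its start. The windows of Mmp8 and Mmp27 held none. All 6 tested genes matched the RefSeq table, with 7 windows, and the motif also stood before Mmp10 and before 1 of the 2 starts listed for Mmp12, so 4 of 7 windows held it, against 7.81% of all 32851 windows in the table. A match is a description of the sequence and not a measured site.

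Mmp13 (collagenase 3, which cuts fibrillar collagen) was at 150, 75 and 145 scaled reads in the P1 libraries, against 534, 567 and 336 in the P0 day 28 libraries and 831, 1011 and 461 in the P0 day 14 libraries. The P1 libraries lay below all others, and the log2 difference between P1 and P0 day 14 was -2.63 ± 0.37 (SE; adjusted p = 0.000124), a 6.19-fold fall. Mmp3 (stromelysin 1, which cuts proteoglycans and activates other proteases) was at 3001, 2961 and 2409 scaled reads in the P1 libraries, against 9032, 5460 and 9374 in the P0 day 28 libraries and 620, 507 and 1708 in the P0 day 14 libraries. Its P1 libraries lay between the P0 groups with no overlap, 3.42-fold above P0 day 14 (log2 difference 1.77 ± 0.36 (SE; adjusted p = 0.00363)) and below P0 day 28 (log2 difference -1.48 ± 0.36 (SE; adjusted p = 0.00979)). Both Mmp13 and Mmp3 have the motif, and they differed from P0 day 14 in opposite directions. Mmp8 (collagenase 2, best known from neutrophils) was at 16, 16 and 16 scaled reads in the P1 libraries, against 38, 57 and 83 in the P0 day 28 libraries and 51, 160 and 55 in the P0 day 14 libraries, at least 2.55-fold lower in P1 than at P0 day 14 (adjusted p = 0.00136). Mmp27 was at 46, 30 and 30 scaled reads in the P1 libraries, against 227, 171 and 260 in the P0 day 28 libraries and 50, 31 and 30 in the P0 day 14 libraries, with no call between P1 and P0 day 14 (log2 difference -0.06 ± 0.31 (SE; adjusted p = 1)) and a fall relative to P0 day 28 (log2 difference -2.64 ± 0.31 (SE; adjusted p = 1.56e-05)). Mmp12, the macrophage elastase, was at 1474, 1393 and 1616 scaled reads in the P1 libraries, against 3007, 3318 and 3854 in the P0 day 28 libraries and 1573, 2226 and 1530 in the P0 day 14 libraries, also with no call against P0 day 14 (adjusted p = 0.718). In the fit of the 6 libraries alone Mmp13 was the 1 member called. Mmp10 (stromelysin 2) had a log2 difference of -0.77 between P1 and P0 day 14 (adjusted p = 0.179).

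In the list of matrix genes and matrix receptors, 2 of 14 rose, 4 fell and 8 were not called, beside 99 of 430 named genes called. The median log2 difference was -0.14. The list is broader than its name, and its members Ctnnal1 and Glipr2 encode no matrix protein or matrix receptor. Col1a2, for the second chain of type I collagen, was at 120137, 116869 and 86777 scaled reads in the P1 libraries, against 124797, 133450 and 162540 in the P0 day 28 libraries and 213095, 178387 and 197445 in the P0 day 14 libraries. P1 lay below both P0 groups, by a log2 difference of -0.87 ± 0.12 (SE; adjusted p = 7.21e-05) against P0 day 14 and of -0.38 ± 0.12 (SE; adjusted p = 0.032) against P0 day 28. The call against P0 day 14 was lost in the fit of the 6 libraries alone (adjusted p = 0.0551) and after quantile normalization. Adamts12, a secreted metalloproteinase, was at 872, 856 and 927 scaled reads in the P1 libraries, against 2476, 2189 and 2212 in the P0 day 14 libraries (log2 difference -1.37 ± 0.16 (SE; adjusted p = 1.85e-05)). Glipr2, a Golgi-associated protein, and Sdc2, the cell surface proteoglycan syndecan 2, had log2 differences of -1.07 and -0.76 (adjusted p = 8.08e-07 and 0.000391). Ctnnal1, for alpha-catulin, a relative of alpha-catenin, was at 3146, 2081 and 3682 scaled reads in the P1 libraries, against 661, 1252 and 716 in the P0 day 28 libraries and 733, 859 and 637 in the P0 day 14 libraries. It rose 3.92-fold in P1 relative to P0 day 14, by a log2 difference of 1.97 ± 0.30 (SE; adjusted p = 0.00026). Cped1 also rose, by 0.70 ± 0.21 (SE; adjusted p = 0.044) in log2, but it was not called in the fit of the 6 libraries alone, with no filter, without the variance trend or without any 1 library other than P1 replicate 3 (adjusted p = 0.0554 to 0.252 over these). With the replicate numbers as a block its adjusted p was 0.0572. Col28a1, a chain of type XXVIII collagen, and Svep1, a large adhesive matrix protein, were called higher at P0 day 28 than at P0 day 14 but were not called between P1 and P0 day 14 (log2 differences 0.31 and 0.13, adjusted p = 0.818 and 0.894).

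The genes that rose in P1 were led by Car8, a carbonic anhydrase relative that lacks the enzyme's activity and binds the inositol trisphosphate receptor. Car8 was at 4175, 3355 and 5537 scaled reads in the P1 libraries, against 572, 1364 and 221 in the P0 day 28 libraries and 906, 856 and 671 in the P0 day 14 libraries. The P1 libraries were above every P0 library of every day, and Car8 rose 5.3-fold relative to P0 day 14 (log2 difference 2.41 ± 0.49 (SE; adjusted p = 0.00358)). It is one of 6 tested genes in a list of carbonic anhydrases and genes of the hypoxia and survival responses. Of the 6, 4 rose and none fell, beside 99 of 430 named genes called, with a median log2 difference of 0.55. The others that rose were Pdk4, a kinase that shuts off pyruvate entry into mitochondria (1193, 1247 and 773 scaled reads in the P1 libraries, against 575, 430 and 376 in the P0 day 14 libraries), and the neighbouring apoptosis inhibitors Birc2 and Birc3 (log2 differences 0.64 and 0.46, adjusted p = 0.0315 and 0.02). Car9, the hypoxia-induced carbonic anhydrase of the cell surface, did not follow them. It was at 30, 30 and 30 scaled reads in the P1 libraries, against 106, 100 and 198 in the P0 day 28 libraries and 30, 101 and 84 in the P0 day 14 libraries, with an adjusted p of 0.0853 against P0 day 14. In the fit of the 6 libraries alone 1 of the 4, Car8, was called. Birc2 and Birc3 both lost their call without P0 day 14 replicate 1, without P1 replicate 1, without P1 replicate 3 and with no filter, which left 2 higher (adjusted p = 0.0633 to 0.135). Car9 was called lower after quantile normalization and without P0 day 14 replicate 1, its library on the floor (adjusted p = 0.0431 and 0.00261).

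Hrct1, on chromosome 4, was at 248, 223 and 299 scaled reads in the P1 libraries, against 84, 48 and 51 in the P0 day 14 libraries, with no overlap and a log2 difference of 2.10 ± 0.29 (SE; adjusted p = 0.000117). Peg10, an imprinted gene derived from a retrotransposon and expressed from the paternal copy, was at 138, 130 and 106 scaled reads in the P1 libraries, against 50, 30 and 52 in the P0 day 28 libraries and 44, 38 and 58 in the P0 day 14 libraries. Its log2 difference between P1 and P0 day 14 was 1.44 ± 0.26 (SE; adjusted p = 0.00134). Sgce (epsilon-sarcoglycan), the imprinted gene that starts beside Peg10 and runs the other way, was at 4125, 3626 and 3071 scaled reads in the P1 libraries, against 2646, 2003 and 2216 in the P0 day 14 libraries (log2 difference 0.66 ± 0.14 (SE; adjusted p = 0.00399)). These were the 2 called of 6 tested imprinted genes of chromosome 6, beside 99 of 430 named genes called, and both rose. In the fit of the 6 libraries alone Sgce was not called (adjusted p = 0.117). Peg10 also lay above every P0 library of every day.

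Secreted signals and their receptors gave 4 higher and 2 lower of 19 tested, beside 99 of 430 named genes called. The median log2 difference was 0.16. Besides Met, the members that rose were Fam3c, a secreted cytokine-like protein (7226, 6149 and 8942 scaled reads in the P1 libraries, against 3832, 3602 and 3700 in the P0 day 14 libraries; log2 difference 0.99 ± 0.13 (SE; adjusted p = 5.52e-05)), Pdgfd, a platelet-derived growth factor (log2 difference 0.64, adjusted p = 0.0117), and Penk, the precursor of the enkephalin peptides. Penk was at 349, 894 and 311 scaled reads in the P1 libraries, against 176, 174 and 173 in the P0 day 14 libraries, so that 1 P1 library stood above the other 2, and without that library the adjusted p was 0.160. Without any 1 of the P0 day 14 libraries it was 0.0739 to 0.0764. The adjusted p of Pdgfd was 0.0594 without P0 day 14 replicate 2 and 0.052 without P1 replicate 1. Il11ra1 and Smo, not called here, were called higher after quantile normalization (adjusted p = 0.0136 and 0.0297). They were also called higher after scaling to the median gene model (adjusted p = 0.0193 and 0.0257), and each scaling gave 6 members higher. Cntfr, the receptor subunit that binds ciliary neurotrophic factor, was at 30, 16 and 30 scaled reads in the P1 libraries, against 61, 117 and 183 in the P0 day 28 libraries and 110, 112 and 136 in the P0 day 14 libraries, at least 3.96-fold lower in P1 than at P0 day 14 (adjusted p = 0.00204). Tmeff1, a membrane protein with follistatin-like domains, was at 295, 220 and 230 scaled reads in the P1 libraries, against 756, 709 and 1191 in the P0 day 14 libraries (log2 difference -1.81 ± 0.37 (SE; adjusted p = 0.00399)). Tgfbr1, the type I receptor for TGF-beta, was at 2033, 1837 and 1924 scaled reads in the P1 libraries, against 4083, 3896 and 4024 in the P0 day 28 libraries and 2032, 2277 and 2233 in the P0 day 14 libraries. Its P1 and P0 day 14 libraries were close (adjusted p = 0.29), and P1 fell relative to P0 day 28 (log2 difference -1.05 ± 0.09 (SE; adjusted p = 3.59e-07)).

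Gem and Pdzd2 were also among the 15 largest rises and stand in no list above. Gem, a small GTPase that restrains voltage-gated calcium channels, was at 425, 216 and 211 scaled reads in the P1 libraries, against 81, 71 and 109 in the P0 day 14 libraries (adjusted p = 0.00747). Pdzd2, a protein with several PDZ domains, was at 181, 227 and 320 scaled reads in the P1 libraries, against 58, 123 and 46 in the P0 day 14 libraries (adjusted p = 0.00314). Neither gene's groups overlapped. Of the 30 genes named for their size of change, 12 were not called in the fit of the 6 libraries alone: Cavin4, Mmp8, Cdh6, Tbc1d2, Esrp1, Cav1, Casp4, Pdk4, Penk, Gem, Mmp3 and Pdzd2, with adjusted p of 0.0556 to 0.213. Their log2 differences are the same in that fit.

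The 9 tested markers of myeloid and osteoclast-like cells summed to 3451 to 4593 scaled reads in the P1 libraries, against 9327 to 13069 in the P0 day 28 libraries and 3760 to 4597 in the P0 day 14 libraries. None of the 9 was on the floor in all libraries of any of these groups. Members with high levels weigh most in such a sum, so near-equal sums do not show that each marker kept its level. The log2 differences between P1 and P0 day 14 ran from -3.045 for Otulinl to 1.201 for Casp4. Between P0 day 28 and P0 day 14, 7 of 9 were called higher and none lower, beside 42 higher and 10 lower of 430 named genes. Between P1 and P0 day 14, 1 was called higher, 3 were called lower and 5 were not called, beside 99 of 430 named genes called. Casp12, not called here, was called higher after quantile normalization and after scaling to the median gene model, and Lyn was called lower without P0 day 14 replicate 3 or P1 replicate 3. In these bulk samples, fewer cells of a type and less RNA per cell cannot be told apart.

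Atp6v0d2, a proton pump subunit used by osteoclasts, was at 222, 301 and 277 scaled reads in the P1 libraries, against 1974, 1919 and 3414 in the P0 day 28 libraries and 220, 359 and 130 in the P0 day 14 libraries. P1 and P0 day 14 overlapped (log2 difference 0.28 ± 0.42 (SE; adjusted p = 0.864)), and P1 was 8.87-fold lower than P0 day 28 (adjusted p = 5.45e-05). Casp1, which processes interleukin 1 beta, was at 197, 158 and 105 scaled reads in the P1 libraries, against 528, 387 and 556 in the P0 day 28 libraries and 147, 125 and 146 in the P0 day 14 libraries, with the same arrangement (adjusted p = 1 against P0 day 14). Irf5, a transcription factor of inflammatory macrophages, and Lyn, a Src-family kinase of blood cells, were called lower in P1 than at P0 day 28 (log2 differences -2.06 and -1.53, adjusted p = 0.000136 and 1.22e-06). Neither was called between P1 and P0 day 14 (adjusted p = 0.511 and 0.071).

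The 3 members that fell below P0 day 14 were Otulinl, Cd72 and Tfec. Otulinl, a catalytically inactive relative of the deubiquitinase OTULIN, was at 50, 48 and 52 scaled reads in the P1 libraries, against 847, 875 and 1262 in the P0 day 28 libraries and 332, 596 and 352 in the P0 day 14 libraries. It fell 8.26-fold relative to P0 day 14, by a log2 difference of -3.04 ± 0.28 (SE; adjusted p = 1.76e-06). Cd72, a receptor of B cells and macrophages, was at 52, 30 and 30 scaled reads in the P1 libraries, against 924, 636 and 852 in the P0 day 28 libraries and 142, 224 and 181 in the P0 day 14 libraries, with P1 on the low floor in 2 of 3 libraries (log2 difference from P0 day 14 -2.31 ± 0.35 (SE; adjusted p = 0.000226)). Tfec, a transcription factor expressed in macrophages, was at 30, 31 and 31 scaled reads in the P1 libraries, against 288, 238 and 193 in the P0 day 28 libraries and 125, 107 and 115 in the P0 day 14 libraries (log2 difference from P0 day 14 -1.91 ± 0.27 (SE; adjusted p = 0.000113)). The P1 libraries of all 3 genes lay below every library of P0 day 14 and P0 day 28. The member that rose was Casp4, an inflammatory caspase, at 522, 413 and 704 scaled reads in the P1 libraries, against 276, 156 and 291 in the P0 day 14 libraries. Its adjusted p of 0.044 was 0.197 without P0 day 14 replicate 2, 0.173 without P1 replicate 3, and 0.0508 to 0.0907 without P0 day 14 replicate 1 or 3 or P1 replicate 1.

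To place P1 between the days, P1 was set against the mean of P0 day 14 and P0 day 28. This comparison is independent of the difference between these days only where both days have the same spread among libraries. Pairs of libraries were 0.656 to 0.76 apart within P0 day 28 and 0.551 to 0.613 within P0 day 14. A wider spread at P0 day 28 favours the day 14 side among gene models called between the days. How much of the split below comes from this was not tested. Of the 505 gene models called between P0 day 28 and P0 day 14, P1 was called on the day 14 side of the midpoint for 166 and on the day 28 side for 58, and 281 were not called. Over all gene models the midpoint comparison called 1014 (13.1%), 201 higher (2.59%) and 813 lower (10.5%) in P1. The split followed the direction of the time change. Among the 442 gene models higher at P0 day 28, 161 lay on the day 14 side and 22 on the day 28 side, and among the 63 lower at P0 day 28, 5 lay on the day 14 side and 36 on the day 28 side. The other 259 and 22 were not called off the midpoint. Among those called, P1 was mostly low in both sets. After quantile normalization 125 lay on the day 14 side and 95 on the day 28 side, of 462, and after scaling to the median gene model 107 and 87, of 440. Without P0 day 28 replicate 3 the count between the days was 276, with 102 on the day 14 side and 45 on the day 28 side. In fits of the compared groups alone that count was 136, with 38 and 32.

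**Figure D3:**
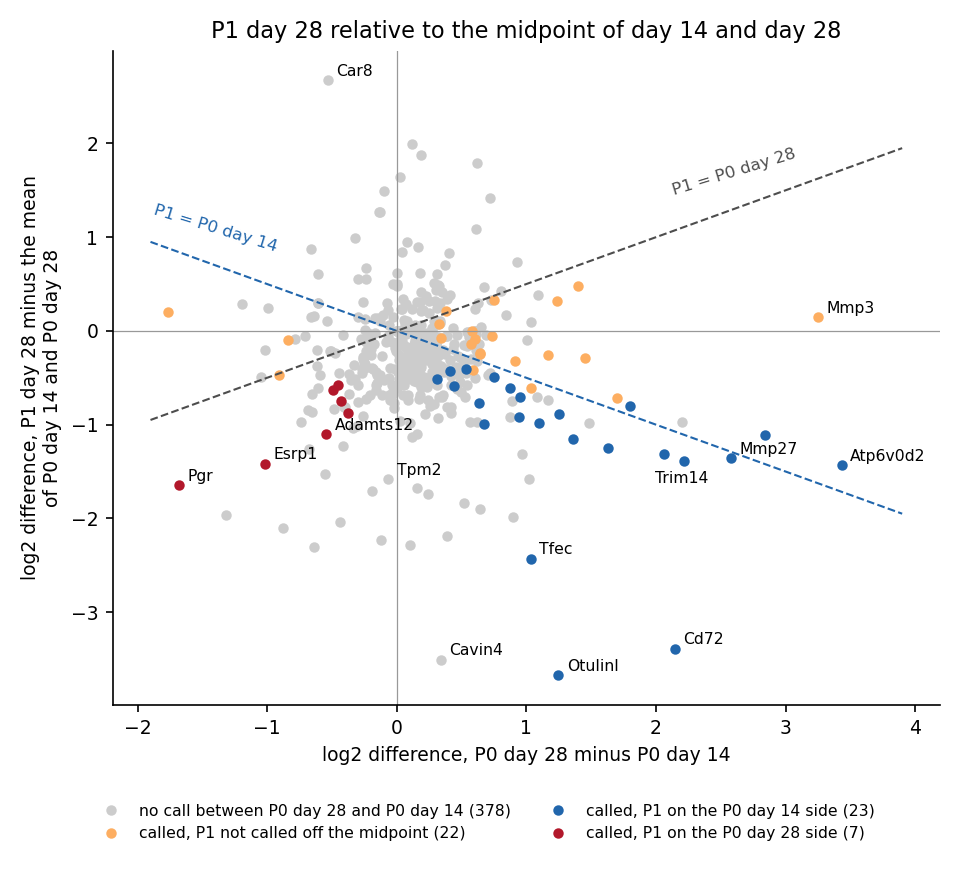
Each point is 1 of the 430 tested genes that can be named, with the log2 difference of P0 day 28 minus P0 day 14 (x axis) and of P1 day 28 minus the mean of these days (y axis). A gene on the blue dashed line has the same level in P1 as at P0 day 14 and one on the grey dashed line the same as at P0 day 28. The 23 blue points all lie at the right and low, and the 7 red points all at the left and low.

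Of the 52 named genes called between the days, 23 had P1 on the day 14 side, all of them higher at P0 day 28, and 7 had P1 on the day 28 side, all of them lower at P0 day 28. Of the 23, 17 were not called between P1 and P0 day 14. Among these were Atp6v0d2, Mmp27, Casp1, Irf5, Lyn, Mmp12, Tgfbr1 and Col28a1. Trim14, an adaptor of antiviral signalling, was at 16, 32 and 30 scaled reads in the P1 libraries, against 107, 110 and 232 in the P0 day 28 libraries and 30, 30 and 30 in the P0 day 14 libraries, so that P1 and P0 day 14 were both at or close to the floor. Rragd, a GTPase that reports amino acid supply at the lysosome, was at 128, 57 and 144 scaled reads in the P1 libraries, against 580, 385 and 615 in the P0 day 28 libraries and 103, 145 and 128 in the P0 day 14 libraries (adjusted p = 0.733 against P0 day 14 and 3.19e-05 against P0 day 28). The other 6 of the 23, Otulinl, Cd72, Tfec, Trp53inp1, Clta and Dctn3, were called below both days. Trp53inp1, a stress protein induced by p53, was at 2048, 2282 and 2462 scaled reads in the P1 libraries, against 6303, 5114 and 5718 in the P0 day 28 libraries and 3688, 3127 and 3919 in the P0 day 14 libraries.

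The 7 genes on the day 28 side were Pgr, Esrp1, Adamts12, Glipr2, Asns, Col1a2 and Tes. Pgr, the progesterone receptor, was at 32, 30 and 16 scaled reads in the P1 libraries, against 66, 42 and 30 in the P0 day 28 libraries and 173, 91 and 171 in the P0 day 14 libraries. It fell relative to P0 day 14 (log2 difference -2.48 ± 0.35 (SE; adjusted p = 0.000138)) and was not called against P0 day 28 (adjusted p = 0.148). Asns, which makes asparagine, was at 3846, 3459 and 3315 scaled reads in the P1 libraries, against 5146, 5005 and 5158 in the P0 day 28 libraries and 7175, 6962 and 6469 in the P0 day 14 libraries, and the 3 groups did not overlap. Its log2 difference was -0.96 ± 0.07 (SE; adjusted p = 2.51e-07) against P0 day 14 and -0.53 ± 0.07 (SE; adjusted p = 6.87e-05) against P0 day 28. Apart from Pgr, all 7 were called below both days. Esrp1, a splicing factor of epithelial cells, was on a floor in all P1 and P0 day 28 libraries and in 1 of 3 P0 day 14 libraries, so its place depends on how floor values are treated (midpoint adjusted p = 0.234 with both floors set to 30). Col1a2 had the highest level of all gene models in each of these 9 libraries, so quantile normalization gives it 1 value in all of them and a midpoint difference of 0.00.

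**Figure D4:**
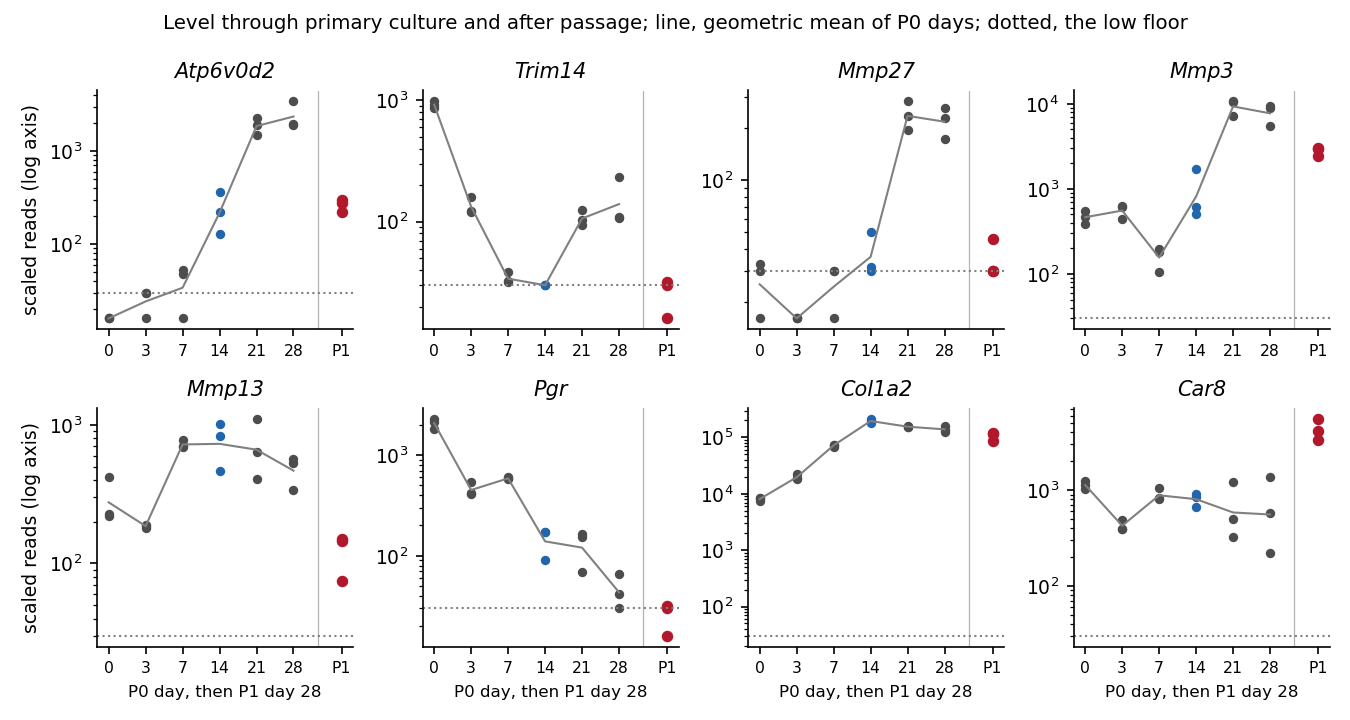
Scaled reads (y axis, log scale) of 8 genes in each library on each of the 6 P0 days and in P1 day 28 (x axis). Blue points are P0 day 14, red points P1, the grey line joins geometric means of the P0 days and the dotted line is the low floor of 30. Atp6v0d2, Trim14 and Mmp27 rise after day 14 and are back near the day 14 level in P1, Mmp3 lies between, Pgr and Col1a2 fall after day 14 and are below their day 14 level in P1, and Mmp13 and Car8 leave their P0 day 14 to day 28 range in P1.

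Genes of lipid and fuel metabolism gave 1 higher and 3 lower of 13 tested, beside 99 of 430 named genes called. The median log2 difference was 0.00. Besides Pdk4 and Asns, the called members were Coq3, a methyltransferase of coenzyme Q synthesis, at 270, 246 and 300 scaled reads in the P1 libraries, against 644, 633 and 593 in the P0 day 14 libraries (log2 difference -1.20 ± 0.14 (SE; adjusted p = 3.03e-05)), and Gne, which makes the precursor of sialic acid (log2 difference -0.43, adjusted p = 0.00621). Abca1, which exports cholesterol, was at 3092, 2889 and 3567 scaled reads in the P1 libraries, against 5152, 6197 and 8292 in the P0 day 28 libraries and 2399, 2190 and 2473 in the P0 day 14 libraries and was not called between P1 and P0 day 14 (adjusted p = 0.145). It was called higher after quantile normalization and after scaling to the median gene model. Pdk4 and Gne were not called in the fit of the 6 libraries alone. The fat cell hormone gene Lep was on a floor in all P1, P0 day 28 and P0 day 14 libraries. Aqp7, the glycerol channel of fat cells, was above the floor in 1 of these 9 libraries, P1 replicate 1 (44 scaled reads).

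The list of endoplasmic reticulum and protein folding genes gave none higher and 4 lower of 11 tested, beside 99 of 430 named genes called. Its median log2 difference was -0.29. The list is broader than its name and holds genes of the Golgi and of sialic acid synthesis, B4galt1 and Nans. B4galt1, a Golgi galactosyltransferase, was at 3034, 2937 and 3367 scaled reads in the P1 libraries, against 6394, 5708 and 5724 in the P0 day 14 libraries (log2 difference -0.93 ± 0.10 (SE; adjusted p = 6.72e-06)). Nans, for sialic acid synthase, Vcp, the ATPase that extracts proteins for degradation, and Creb3, a membrane-bound transcription factor, had log2 differences of -0.79, -0.37 and -0.39 (adjusted p = 0.00217, 0.00734 and 0.00502). The list of ribosome and translation genes gave none higher and 4 lower of 8 tested, beside 99 of 430 named genes called. Its median log2 difference of -0.57 includes Rpl30, for which no direction is given below. This list too is broader than its name, with Asns, Ywhaz, Exosc3 and Polr2k in it. The 4 called lower were Asns, Rps20, a protein of the small ribosomal subunit, Pabpc1, which binds poly(A) tails, and Nol6, a nucleolar factor. Rps20 was at 2826, 3108 and 3225 scaled reads in the P1 libraries, against 4571, 3937 and 4711 in the P0 day 14 libraries and Pabpc1 at 2777, 2538 and 3234 scaled reads in the P1 libraries, against 4861, 3816 and 4657 in the P0 day 14 libraries. In the fit of the 6 libraries alone the first of these lists had 2 members called, B4galt1 and Nans, and the second 1, Asns (adjusted p = 0.0523, 0.088 and 0.297 for Rps20, Pabpc1 and Nol6). Vcp was not called after quantile normalization, and Nol6 was not called with no filter, without the variance trend or without any 1 library other than P1 replicate 3.

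Transcription factors gave 1 higher and 5 lower of 15 tested, beside 99 of 430 named genes called, with a median log2 difference of -0.48. Klf4, a factor of quiescence and differentiation, was at 320, 346 and 405 scaled reads in the P1 libraries, against 621, 599 and 534 in the P0 day 14 libraries (log2 difference -0.72 ± 0.18 (SE; adjusted p = 0.02)). Klf10, a factor induced by TGF-beta, rose (log2 difference 0.49 ± 0.10 (SE; adjusted p = 0.00314)). The others that fell were Tfec, Creb3, Zfp462 and the epithelial factor Grhl2. Klf4 and Zfp462 both lost their call with no filter and without P0 day 14 replicate 1 or 2 or P1 replicate 1 or 2, which left 3 lower (adjusted p = 0.0587 to 0.217 over the fits without these libraries). Grhl2 was on the zero floor in all P1 libraries and at 30, 44 and 51 scaled reads in the P0 day 14 libraries. With both floors set to 30 it was not called (adjusted p = 0.26). Of 8 tested epithelial markers, 2 fell, Grhl2 and Esrp1, and none rose, beside the same 99 of 430 named genes. The 8 markers summed to 0 to 89 scaled reads above the floor in the P1 libraries, against 138 to 205 in the P0 day 14 libraries and 42922 to 85255 in the P0 day 0 libraries, and in P1 7 of 8 were on a floor in all libraries. None of 3 tested lymphocyte markers was called (Tox, which T cells also express, had a log2 difference of 1.03 and an adjusted p of 0.0677, and was called higher after quantile normalization and after scaling to the median gene model), and their list of 7 summed to 128 to 190 scaled reads in P1 libraries, against 95 to 126 in P0 day 14 libraries. Pax5, which defines B cells, was on a floor throughout both groups.

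Genes of the cell cycle and replication gave none higher and 1 lower of 11 tested, beside 99 of 430 named genes called. The median log2 difference was -0.48. The member that fell was Ccnc, cyclin C (adjusted p = 0.0467). It was not called after quantile normalization, after scaling to the median gene model or in the fit of the 6 libraries alone. Melk, a kinase of dividing cells, was at 157, 113 and 159 scaled reads in the P1 libraries, against 45, 78 and 86 in the P0 day 28 libraries and 213, 188 and 292 in the P0 day 14 libraries. It fell between the days (log2 difference of P0 day 28 minus P0 day 14 -1.76 ± 0.33 (SE; adjusted p = 0.00328)), and P1 was higher than P0 day 28 (log2 difference 1.08 ± 0.33 (SE; adjusted p = 0.0376)) and not called against P0 day 14 (log2 difference -0.68 ± 0.33 (SE; adjusted p = 0.276)). Ccne2, cyclin E2, was at 245, 313 and 258 scaled reads in the P1 libraries, against 203, 237 and 211 in the P0 day 28 libraries and 384, 352 and 426 in the P0 day 14 libraries, with P1 not called against either day (adjusted p = 0.262 against P0 day 28 and 0.0827 against P0 day 14).

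None of the 13 mitochondrially encoded genes was called between P1 and P0 day 14 by limma. All 13 had a negative log2 difference, of -0.55 to -0.06 with a median of -0.30, and 7 had an unadjusted p under 0.05. After scaling to the median gene model mt-Nd6 was called lower, and in the fit of the 6 libraries alone mt-Nd3 was (adjusted p = 0.0159 and 0.0178). With the filter on the compared groups mt-Nd6 was also called lower, as was mt-Atp6 without P1 replicate 1 (adjusted p = 0.0452 and 0.0172). None was called after quantile normalization, where the median was -0.11. The mitochondrial share of reads above the floor was 7.18 to 9.12% in P1 libraries and 7.99 to 9.54% in P0 day 14 libraries. Of the 6 tested nuclear genes of the respiratory chain, 1 fell, Coq3, and none rose, beside 99 of 430 named genes called. The list is broader than its name, since Coq3 is a gene of coenzyme Q synthesis. Ndufb6 had a log2 difference of -0.28 (adjusted p = 0.0508). It was called lower in the fit of the 6 libraries alone and with the filter on the compared groups (adjusted p = 0.0332 and 0.0361). Ndufa5 was at 933, 16 and 1122 scaled reads in the P1 libraries, against 16, 912 and 16 in the P0 day 14 libraries, and Cox6c at 1434, 1524 and 30 scaled reads in the P1 libraries, against 1362, 30 and 1229 in the P0 day 14 libraries. Both groups thus held libraries on a floor beside libraries far above it, and no direction is given for these genes. Rpl30, in the ribosome list, had 80, 1276 and 125 scaled reads in the P1 libraries, against 1452, 1266 and 1614 in the P0 day 14 libraries and is treated in the same way.

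**Figure D5:**
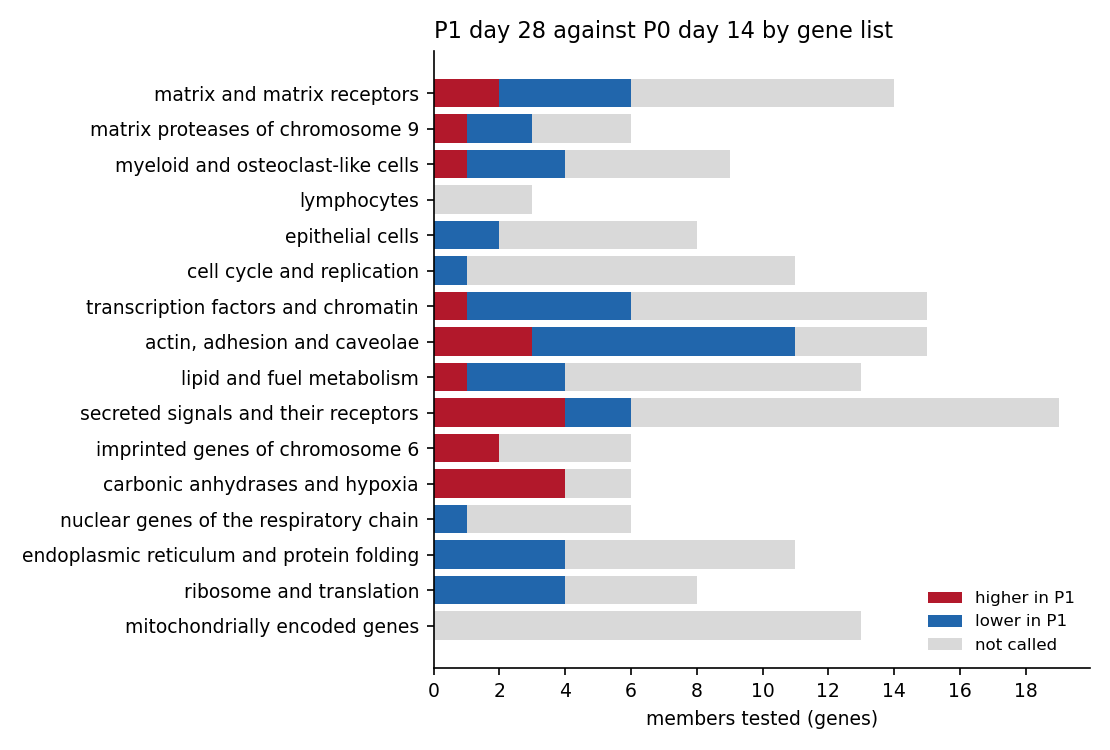
Number of tested genes (x axis) of each gene list (y axis) called higher in P1, called lower in P1 or not called between P1 day 28 and P0 day 14. The actin, adhesion and caveolae list has 11 of 15 members called, and the lymphocyte and mitochondrially encoded lists have none.

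Some genes took levels in P1 that no P0 library had on any day. Over the 7767 gene models, all 3 P1 libraries were above all 18 P0 libraries for 53 (0.682%) and below all of them for 239 (3.08%). Among the 430 named genes 2 were above, Car8 and Peg10, and 48 were below. For 14 of the 239 gene models below, Esrp1 among them, the P1 libraries and at least 1 P0 library were all on a floor, so that being below is only the step between the 2 floors. This count depended on the scaling, with 172 above and 73 below after scaling to the median gene model, and 195 and 62 after quantile normalization. Among the named genes those scalings left 8 and 10 below and put 14 above. Car8 and Peg10 were above under all 3 scalings. Besides Esrp1, the genes below under all 3 were Cntfr, Enho, Nfx1, Retreg1, Tbc1d2 and mt-Nd6. Tbc1d2, a regulator of the Rab7 GTPase of late endosomes, was at 60, 133 and 113 scaled reads in the P1 libraries, against 590, 404 and 544 in the P0 day 28 libraries and 378, 309 and 492 in the P0 day 14 libraries (log2 difference from P0 day 14 -2.00 ± 0.25 (SE; adjusted p = 5.39e-05)). Enho, the precursor of the peptide adropin, was at 59, 110 and 53 scaled reads in the P1 libraries, against 214, 324 and 391 in the P0 day 28 libraries and 232, 193 and 206 in the P0 day 14 libraries. Retreg1, a receptor for autophagy of the endoplasmic reticulum, was at 30, 63 and 92 scaled reads in the P1 libraries, against 247, 223 and 321 in the P0 day 28 libraries and 132, 208 and 170 in the P0 day 14 libraries. Myorg, a glycosidase of the endoplasmic reticulum, was lower in P1 than on each P0 day from day 3 on, at 146, 124 and 148 scaled reads in the P1 libraries, against 442, 495 and 525 in the P0 day 14 libraries (log2 difference -1.81 ± 0.20 (SE; adjusted p = 1.26e-05)).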

How the data were processed

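RNA (15 ng) from 21 cultures of the stromal vascular fraction was amplified with a SMART-Seq HT PLUS kit after extraction with 1 of 2 kits, per the labels' protocols, which do not say which library had which. The build is GRCm39, per the submitters' processing notes; the aligner and counter were not given in the sources used here. Values are log2 as deposited by the authors, with each gene model centred on 0 over the libraries. From its floors (16 for 0 reads, 30 for low levels), or where these did not settle it from a search for whole reads, the level was recovered. This was done for 30466 of 30961 gene models, with 100% of 113673 values under 10000 reads whole within 0.1 reads. The library factors and the levels of gene models never on a floor were chosen to give whole reads. That share is therefore no separate check of the recovery. Another 493 had 1 value in all libraries and 2 could not be solved. Since values under the floor were replaced, no count test was run. The procedures were tested on simulated data.

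Gene positions are from GENCODE M21 (GRCm38). Of the gene models, 7767 were above 30 in at least 3 of 21 libraries and were fitted with limma 3.58.1 (R 4.3.3, variance trend, 7 groups). P-values were adjusted over all 7767 by Benjamini-Hochberg, and a call is an adjusted p under 0.05. Errors are standard errors, with 3 libraries per group. Genes were named by rule: the 15 largest changes called in each direction between P1 and P0 day 14, up to 8 on each side of the midpoint, the members of the gene lists and the mitochondrially encoded genes. Genes outside these were chosen after their values were seen. The comparison, the genes and the lists were chosen with earlier results of these data known. Alternatives were quantile normalization, scaling to the median gene model, no filter, a filter on the compared groups, the floors merged, no trend, the compared groups alone, a replicate block and leaving out each library. A called member of the actin and adhesion list is counted and not reported here by name.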

Additional observations from a re-analysis of the deposited data

How the results depend on the processing

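The 708 calls between P1 and P0 day 14 ranged from 473 in the fit of the compared groups alone to 906 after quantile normalization over the alternatives. The calls higher in P1 were 150 in the fit of the compared groups alone and 413 after quantile normalization, against 261. The named genes called were 59 in the fit of the compared groups alone, against 99, and the list members called 32. That fit also gave 528 calls between P1 and P0 day 28 and 136 between P0 day 28 and P0 day 14, with 38 gene models on the day 14 side and 32 on the day 28 side of the midpoint. The day 14 side held 107 after scaling to the median gene model and 107 with no filter on low values, and the day 28 side 95 after quantile normalization. Leaving out single libraries gave 517 to 622 calls between P1 and P0 day 14 (190 to 252 higher, 307 to 429 lower, 79 to 93 named genes, 44 to 51 list members), 748 to 1070 between P1 and P0 day 28, 276 to 496 between the days, and 765 to 1034 against the midpoint, with 102 to 188 on the day 14 side and 43 to 59 on the day 28 side. The lowest of the counts between P1 and P0 day 28 and between the days came without P0 day 28 replicate 3. Leaving out any 1 library of P1 or of the P0 day compared put P1 at 0.585 to 0.598 from day 14, 0.646 to 0.730 from day 21 and 0.649 to 0.744 from day 28. The distance of P1 to P0 day 14 was 0.591 after quantile normalization, 0.50 with the zero floor raised, and 0.349 with no filter, where day 21 was at 0.400 and day 28 at 0.415. Day 14 was the nearest day by this measure under every alternative run. P1 libraries outside all P0 libraries, a count chosen with its scalings after seeing the data, were 172 above and 73 below after scaling to the median gene model, and 195 and 62 after quantile normalization, with 8 and 10 named genes below. Of the 30 genes named by size, 18 kept their call under all 14 alternatives. Whether the replicate numbers pair the samples is not given in the labels and could not be settled here. Same-numbered deviations of P1 and P0 day 14 correlated at 0.173, -0.089 and 0.122 over 3172 gene models. Those of P1 and P0 day 28 correlated at 0.324, 0.007 and 0.132. A replicate block gave 665 calls between P1 and P0 day 14. At this depth levels under 32.0 to 40.5 reads in P1 could not be measured.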

Other observations

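Of the 99 named genes called between P1 and P0 day 14, 47 stand in no gene list. The genes given here were chosen from them after their values were seen, and no theme was tested. Txn1, for thioredoxin 1, which reduces oxidized protein thiols, was at 3032, 3067 and 3454 scaled reads in the P1 libraries, against 4416, 4523 and 4369 in the P0 day 28 libraries and 5420, 4578 and 4860 in the P0 day 14 libraries (log2 difference from P0 day 14 -0.64 ± 0.09 (SE; adjusted p = 0.000139)). Rad23b, which carries ubiquitinated proteins to the proteasome, was at 1276, 1422 and 1679 scaled reads in the P1 libraries, against 2513, 2298 and 2291 in the P0 day 14 libraries (adjusted p = 0.00363). Ube2j1, a ubiquitin-conjugating enzyme of the endoplasmic reticulum, was at 2564, 2227 and 2171 scaled reads in the P1 libraries, against 3389, 3520 and 3266 in the P0 day 14 libraries (adjusted p = 0.000149).

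Rab2a, a GTPase between the endoplasmic reticulum and the Golgi, was at 7853, 7233 and 8041 scaled reads in the P1 libraries, against 10464, 9932 and 10300 in the P0 day 14 libraries (log2 difference -0.41 ± 0.06 (SE; adjusted p = 0.000341)). Clta, for a clathrin light chain, was at 2961, 2567 and 2865 scaled reads in the P1 libraries, against 4668, 4311 and 5844 in the P0 day 28 libraries and 3944, 3445 and 3472 in the P0 day 14 libraries (log2 difference from P0 day 14 -0.37 ± 0.10 (SE; adjusted p = 0.0227)). Tfpi2, a secreted inhibitor of serine proteases in the matrix, was at 202, 135 and 276 scaled reads in the P1 libraries, against 580, 534 and 478 in the P0 day 14 libraries (log2 difference -1.43 ± 0.20 (SE; adjusted p = 0.00015)). Basp1, a membrane-anchored protein of the actin cortex, was at 511, 470 and 447 scaled reads in the P1 libraries, against 1042, 821 and 1027 in the P0 day 14 libraries (log2 difference -1.01 ± 0.21 (SE; adjusted p = 0.00367)). Stk3, a kinase of the Hippo pathway, rose, at 1049, 973 and 1148 scaled reads in the P1 libraries, against 808, 760 and 719 in the P0 day 14 libraries (log2 difference 0.47 ± 0.11 (SE; adjusted p = 0.0125)).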
